A study of Mus musculus with 8 samples.

Results

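The E proteins and their Id inhibitors were examined in iTreg sorted as Nrp-1+ or Nrp-1- as a family of 6 genes, taken by symbol from 23361 genes in the expression table: the inhibitor genes Id1, Id2 and Id3, and the E protein genes Tcf3 (E2A), Tcf4 (E2-2) and Tcf12 (HEB). All 6 were found. Naive CD4+ T cells of wild-type B6 Foxp3-RFP reporter mice (young adults by the methods of the study), in which a red fluorescent protein reports Foxp3, were turned into iTreg with anti-CD3/CD28 beads (1 bead per 5 cells), IL-2 at 50 U/ml and TGF-β at 2 ng/ml over 3 days, although another label field gives day 5. Live CD4+ Foxp3-RFP+ cells were then divided by surface Nrp-1, so that both groups share the culture and the Foxp3 gate and differ in the Nrp-1 gate. RNA was sequenced from 4 libraries of each group, labelled biological replicates 1 to 4; nothing says whether the replicates were separate animals or separate cultures, so p-values measure the spread between these libraries. Values are FPKM, in which fragments are counted per length of transcript and per mapped library, a level that can be set side by side between genes.

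E proteins are basic helix-loop-helix transcription factors that pair with each other or with a tissue-restricted partner and bind DNA at a short palindrome, the E-box. Id proteins carry the helix-loop-helix but lack the basic stretch that touches DNA, so a pair of an E protein and an Id protein does not bind. In T cells this balance is known for its part in thymic development, in the naive state and in the maintenance of regulatory T cells, where Id2 and Id3 are the main inhibitors. The names invite confusion, since Tcf7, Tcf7l1, Tcf7l2 and Lef1 are HMG-box factors of the Wnt pathway and no E proteins.

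The sort and the cell type were read from the same table. Nrp1, on whose protein the cells were divided, lay at 20.4 to 22.0 FPKM in Nrp-1+ iTreg but only at 4.70 to 5.31 FPKM in Nrp-1- iTreg. All 8 of 8 T cell and Treg markers had a mean of at least 1 FPKM, and their summed level was 1926 to 1970 FPKM against 1964 to 2073 FPKM, Nrp-1+ iTreg first here and in what follows. Of the B cell markers 1 of 7, Cd79b, reached 1 FPKM (summed 5.21 to 5.96 FPKM against 4.01 to 5.83 FPKM), and Ms4a1 and Pax5 were listed at 0 throughout. Dendritic cell markers are of interest because Tcf4 is the E protein of plasmacytoid dendritic cells. These markers summed to 0.224 to 0.377 FPKM against 0.125 to 0.222 FPKM with 0 of 6 at 1 FPKM and Clec9a at 0. Most of the sum was Zbtb46 (0.188 FPKM against 0.0643 FPKM) and Xcr1 (0.0914 FPKM against 0.0756 FPKM). Siglech was at 0 FPKM against 0.0156 FPKM. Markers of NK and innate lymphoid cells, in which Id2 is high, summed to 0.787 to 1.02 FPKM against 0.464 to 0.786 FPKM with 0 of 5 at 1 FPKM. Nearly all of this sum was Eomes (0.8495 FPKM against 0.5933 FPKM). Among the others, Ncr1 (0.0177 FPKM against 0.0302 FPKM) and Zbtb16 were lower in Nrp-1+ iTreg, and Klrb1c and Gata2 were higher. The 4 myeloid markers in the table summed to 6.44 to 7.17 FPKM against 5.38 to 6.19 FPKM, nearly all of it Itgam. The pair of CD8 markers summed to 7.10 to 8.78 FPKM against 9.33 to 11.3 FPKM, nearly all of it Cd8b1. Cd8a was at 0.0571 FPKM against 0.0474 FPKM. All 7 of 7 proliferation markers were higher in Nrp-1+ iTreg, with sums of 1160 to 1197 FPKM against 652 to 668 FPKM. The part of these lists in the differences given next was not tested, and in bulk RNA fewer cells of a type cannot be told apart from less RNA per cell.

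Tcf3, Id3, Id2 and Tcf12 were well expressed, whereas Id1 and Tcf4 were close to the lower limit. By mean FPKM over the 8 libraries, Tcf3 lay above 77.9% of the 10467 genes with a mean of at least 1 FPKM, Id3 above 76.0%, Id2 above 70.4%, Tcf12 above 69.6% and Id1 above 6.00%, while Tcf4 fell below that limit. In Nrp-1+ iTreg the order was Tcf3, Id3, Id2, Tcf12, Id1 and Tcf4 in 4 of 4 libraries, and the ranges of neighbours did not overlap. In Nrp-1- iTreg Tcf12 stood before Id2, again in 4 of 4 libraries. There the ranges of Tcf3 and Id3 overlapped, as did those of Tcf12 and Id2, so the spread between libraries does not separate these neighbours, although their order was the same within each library. A drop of 12.6 times in Nrp-1+ iTreg (from Tcf12) and of 21.8 times in Nrp-1- iTreg (from Id2) separated the 4 abundant genes from Id1. Id4, the fourth Id gene, was listed at 0 in all but 1 library.

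**Figure D1:**
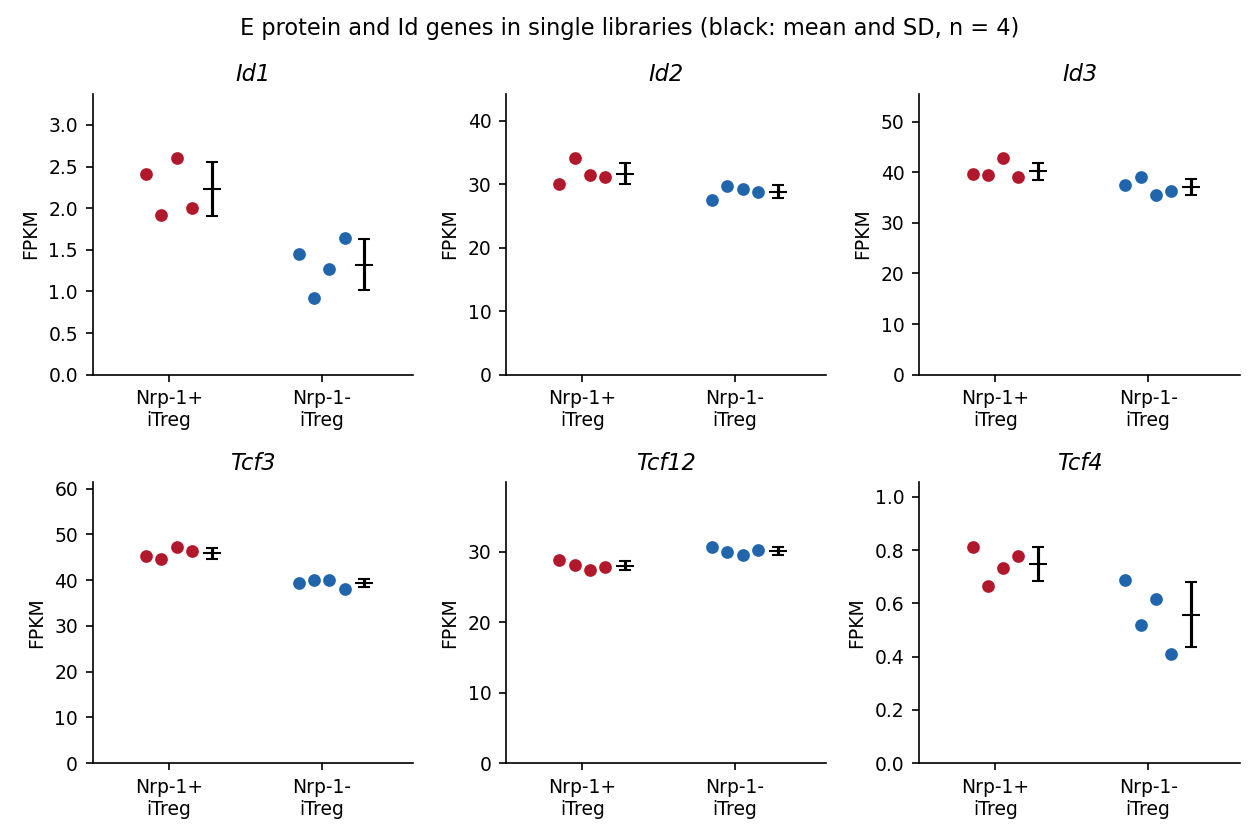
FPKM of the 6 genes (1 panel each, y axis from 0) in the 4 libraries of Nrp-1+ iTreg (red) and of Nrp-1- iTreg (blue), with the mean and SD in black. Red and blue points do not overlap for Id1, Id2, Id3, Tcf3 and Tcf12, blue lies above red for Tcf12, and the groups overlap for Tcf4.

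Of the 6 genes, Id1, Id2, Id3 and Tcf3 were higher and Tcf12 was lower in Nrp-1+ iTreg at the limit set for limma (adjusted p under 0.05), and Tcf4 did not pass. Across all 10467 genes tested, 40.9% passed in either direction, 20.9% higher and 20.0% lower, so that a pass in this comparison is common. The groups did not overlap for 5 of the 6 genes, and for 39.5% of all tested genes. Among the 4282 genes that passed, ordered by size of the log2 fold change, Id1 stood at place 638, Tcf3 at 2212, Id2 at 3610, Id3 at 3849 and Tcf12 at 4074. The changes of Tcf3, Id2, Id3 and Tcf12 were thus smaller than the median size among the genes that passed, Tcf3 only just (0.217 against 0.223). With libraries scaled to an equal sum over genes that are not short RNA genes (microRNA, snoRNA and the like), 73.9% of the genes that passed were higher, against 51.1% with the values as deposited, and 4 of the 6 genes passed.

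Tcf3 encodes E2A, the E protein with the splice forms E12 and E47, which a gene-level FPKM does not separate (RefSeq, GRCm38.p6, chromosome 10, 80409541 to 80433976). It was at 45.2, 44.6, 47.3 and 46.4 FPKM in Nrp-1+ replicates 1 to 4, and the Nrp-1- replicates had 39.5, 40.0, 39.9 and 38.0 FPKM. Every Nrp-1+ iTreg library lay above every Nrp-1- iTreg library, with a gap of 4.69 FPKM between the groups. The means were 45.9 ± 1.19 FPKM (SD, n = 4) and 39.3 ± 0.916 FPKM (SD, n = 4), which are 6.55 FPKM apart (exact two-sided permutation test, p = 0.0286, the smallest that 4 libraries against 4 allow). This is an increase of 16.7%, or 0.22 ± 0.03 (standard error) as a log2 fold change on the log2(FPKM + 1) scale (adjusted p = 0.000358 by limma). Tcf3 passed in 22 of 22 alternative fits. The FPKM values of Tcf3 were whole multiples of a common step once the relative depth of the libraries was removed, which gave 11962 fragments against 9849. The ratio of the rates was 1.17 (95% exact binomial interval 1.14 to 1.20, counting error only). Replicates spread 2.08 and 1.26 times as much as counting alone gives, as variances.

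Tcf12 encodes HEB, the partner with which E2A forms the main E protein pair of thymocytes (chromosome 9, 71844252 to 72111893). Its values were 28.9, 28.1, 27.4 and 27.8 FPKM in the Nrp-1+ libraries, while the Nrp-1- libraries had 30.7, 29.9, 29.5 and 30.3 FPKM. Here every Nrp-1+ iTreg library was the lower one, by a gap of 0.639 FPKM. Means of 28.1 ± 0.617 FPKM (SD, n = 4) and 30.1 ± 0.508 FPKM (SD, n = 4) gave a change of -6.85% (exact two-sided permutation test, p = 0.0286), and limma put the log2 fold change at -0.10 ± 0.02 (standard error, adjusted p = 0.0105). The direction was the same in 22 of 22 alternative fits and the call held in 20 of them. It was lost, among others, when libraries were scaled to an equal sum over genes that are not short RNA genes (log2 fold change -0.038, adjusted p = 0.405 by limma). No fragment numbers could be read from the values of Tcf12.

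Because Tcf3 and Tcf12 moved in opposite directions, their ratio within a library, which no scaling of the library can change, was also read. It was 1.57, 1.59, 1.72 and 1.67 in the Nrp-1+ libraries, against 1.29, 1.33, 1.35 and 1.25 in the Nrp-1- libraries. The ratios of the groups did not overlap, which follows from the separation of Tcf3 and Tcf12 in opposite directions and adds nothing to it. As a share of the summed E protein FPKM, Tcf3 held 61.4% ± 1.05 (SD, n = 4) against 56.2% ± 0.818, and Tcf12 held 37.6% ± 1.03 against 43.0% ± 0.883. The summed level of the 3 E protein genes was 73.4 to 75.4 FPKM in Nrp-1+ iTreg, above the 68.7 to 70.9 FPKM of Nrp-1- iTreg. These sums and ratios are descriptions without a test.

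Tcf4 encodes E2-2, known above all from plasmacytoid dendritic cells and B cells. It was at 0.812, 0.665, 0.733 and 0.778 FPKM in the Nrp-1+ libraries, and 0.688, 0.517, 0.617 and 0.410 FPKM were found in the Nrp-1- libraries. The highest Nrp-1- iTreg library lay above the lowest Nrp-1+ iTreg library, so the groups overlapped (exact two-sided permutation test, p = 0.0571). Tcf4 was fitted among all 16289 genes not at 0 throughout, of which 25.8% passed. On the log2(FPKM + 1) scale its log2 fold change was 0.17 ± 0.06 (standard error, adjusted p = 0.0761 by limma). That scale understates a gene this low, and the ratio of the group means gave 0.42. Without replicate 1 of Nrp-1- iTreg the adjusted p was 0.0356. Tcf4 made up 1.00% ± 0.0775 of the summed E protein FPKM, against 0.795% ± 0.165. At this level a difference of Tcf4 was not established. As with the far more abundant Tcf12, no fragment numbers could be read from the values of Tcf4.

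Id1 is the Id gene best known as an early target of BMP signalling through Smad1 and Smad5 (chromosome 2, 152736251 to 152737410). It was at 2.41, 1.92, 2.60 and 2.00 FPKM in the Nrp-1+ libraries and reached 1.45, 0.918, 1.27 and 1.64 FPKM in the Nrp-1- libraries. The groups did not overlap, but only 0.270 FPKM separated the lowest Nrp-1+ iTreg library from the highest Nrp-1- iTreg library. Means of 2.23 ± 0.324 FPKM (SD, n = 4) and 1.32 ± 0.308 FPKM (SD, n = 4) differed by 69.0% (exact two-sided permutation test, p = 0.0286), the largest relative difference of the 6 genes. The log2 fold change was 0.48 on the log2(FPKM + 1) scale (standard error 0.12, adjusted p = 0.0110 by limma), which understates a gene this low, and 0.76 as the ratio of the group means. Id1 passed in 21 of 21 alternative fits in which it was tested.

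Fragment numbers show how little signal Id1 rests on. They were 35, 28, 46 and 29 in the Nrp-1+ libraries, against 26, 14, 15 and 23 in the Nrp-1- libraries, the smallest whole numbers that fit the values of all 8 libraries. The counting interval of a single library was wide, for example 1.68 to 3.34 FPKM in Nrp-1+ replicate 1 and 0.502 to 1.54 FPKM in Nrp-1- replicate 2. Summed over libraries, 138 against 78 fragments gave a ratio of rates of 1.70 (95% exact binomial interval 1.28 to 2.28, counting error only). The replicates spread 0.741 and 1.07 times as much as counting alone gives, as variances of 4 libraries each and if the smallest whole numbers are the true ones.

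**Figure D2:**
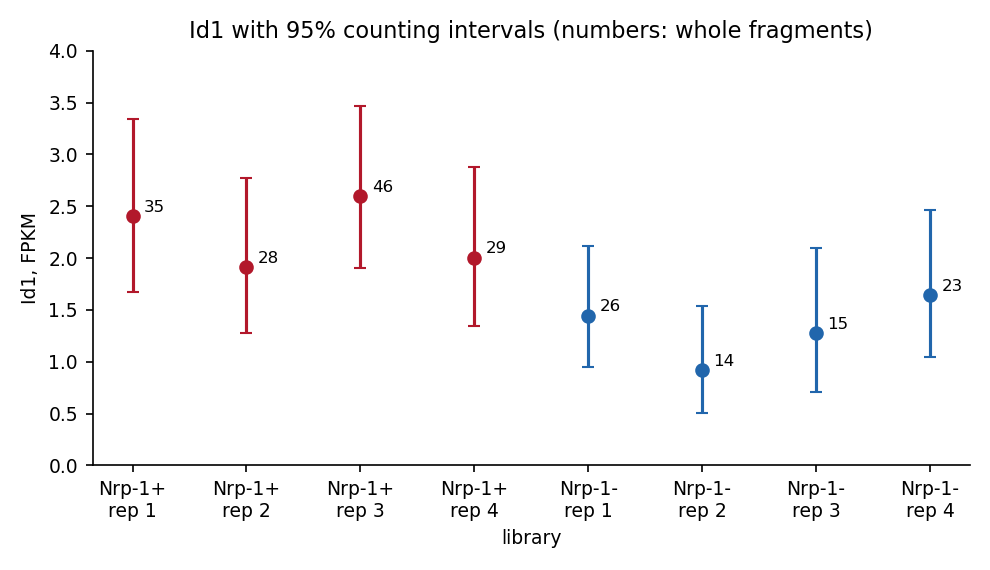
Id1 in FPKM (y axis) in the 8 libraries (x axis), Nrp-1+ iTreg in red and Nrp-1- iTreg in blue, with exact 95% Poisson counting intervals as bars and the number of fragments beside each point. Intervals of most pairs of single libraries overlap between the groups, but those of Nrp-1+ replicates 1 and 3 lie above that of Nrp-1- replicate 2, and the 28 to 46 fragments of Nrp-1+ iTreg lie above the 14 to 26 of Nrp-1- iTreg.

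Id2 (chromosome 12, 25093799 to 25096092) and Id3 (chromosome 4, 136143822 to 136145392) are the abundant inhibitors, and Id3 is induced by T cell receptor signals through Egr factors. As E proteins bind the E-box CANNTG, the 250 bases before the start of each gene are shown with any such match in capitals, 5′ to 3′ on the strand of the gene (RefSeq, GRCm38.p6).
Id2, chr12:25096093-25096342, minus strand: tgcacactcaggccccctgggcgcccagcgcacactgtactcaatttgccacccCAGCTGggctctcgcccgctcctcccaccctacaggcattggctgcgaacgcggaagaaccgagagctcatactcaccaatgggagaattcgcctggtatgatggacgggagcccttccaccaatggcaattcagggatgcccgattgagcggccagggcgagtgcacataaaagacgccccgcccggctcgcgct
Id3, chr4:136143572-136143821, plus strand: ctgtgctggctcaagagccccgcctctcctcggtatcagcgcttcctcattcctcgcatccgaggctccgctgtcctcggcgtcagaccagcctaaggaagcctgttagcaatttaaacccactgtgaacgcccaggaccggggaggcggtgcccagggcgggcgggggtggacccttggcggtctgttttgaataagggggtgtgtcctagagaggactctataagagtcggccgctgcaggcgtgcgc
Id2 held 1 match, CAGCTG at position -196 from the start, and the Id3 window held 0. Matches to CANNTG, which reads alike on both strands, occurred in 66.2% of 32851 windows of this length, CAGCTG in 13.0%, and CACCTG or its reverse CAGGTG in 17.2%. The other windows precede starts of transcription inside the gene spans given above, at 80433635 for Tcf3 and at 72111819, 72111201 and 71896096 for Tcf12. That of Tcf3 held CACTTG. Of the 3 windows of Tcf12 the first held CAGCTG, another held CAAGTG and the last no match. Id1 and Tcf4 had no entry. A match describes letters and shows no binding, and a window without one says nothing of the factor.

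Id2 was at 30.1, 34.0, 31.4 and 31.2 FPKM in the Nrp-1+ libraries, with 27.5, 29.8, 29.2 and 28.8 FPKM in the Nrp-1- libraries. The lowest Nrp-1+ iTreg library was 0.294 FPKM above the highest Nrp-1- iTreg library. The means were 31.7 ± 1.69 FPKM (SD, n = 4) and 28.8 ± 0.990 FPKM (SD, n = 4), an increase of 9.85% (exact two-sided permutation test, p = 0.0286) that limma put at 0.13 ± 0.04 (standard error) as a log2 fold change (adjusted p = 0.0351). The call was marginal. It held in 13 of 22 alternative fits, and with single libraries left out it held only without Nrp-1+ replicate 1 or Nrp-1- replicate 2 (adjusted p from 0.0250 to 0.0826 over the 8 libraries).

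Id3 was at 39.7, 39.4, 42.8 and 39.1 FPKM in the Nrp-1+ libraries, against 37.4, 39.1, 35.5 and 36.3 FPKM in the Nrp-1- libraries. Nrp-1+ replicate 4 and Nrp-1- replicate 2 were only 0.0367 FPKM apart, so the groups barely missed each other. Means of 40.2 ± 1.70 FPKM (SD, n = 4) and 37.1 ± 1.56 FPKM (SD, n = 4) gave an increase of 8.59% (exact two-sided permutation test, p = 0.0286, but 0.0571 after median-of-ratios scaling), which limma put at 0.12 ± 0.04 (standard error) as a log2 fold change (adjusted p = 0.0439). Id3 passed in 10 of 22 alternative fits, and with single libraries left out only without Nrp-1+ replicate 4 or Nrp-1- replicate 2 (adjusted p from 0.0241 to 0.106). By fragments, the ratio of rates was 1.10 for Id2 (2929 against 2558 fragments, 95% exact binomial interval 1.04 to 1.16) and 1.09 for Id3 (2623 against 2324, interval 1.03 to 1.15), counting error only. As variances, the replicates of Id2 spread 2.00 and 0.856 times as much as counting alone gives (Nrp-1+ iTreg first), and those of Id3 1.27 and 0.959 times.

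**Figure D3:**
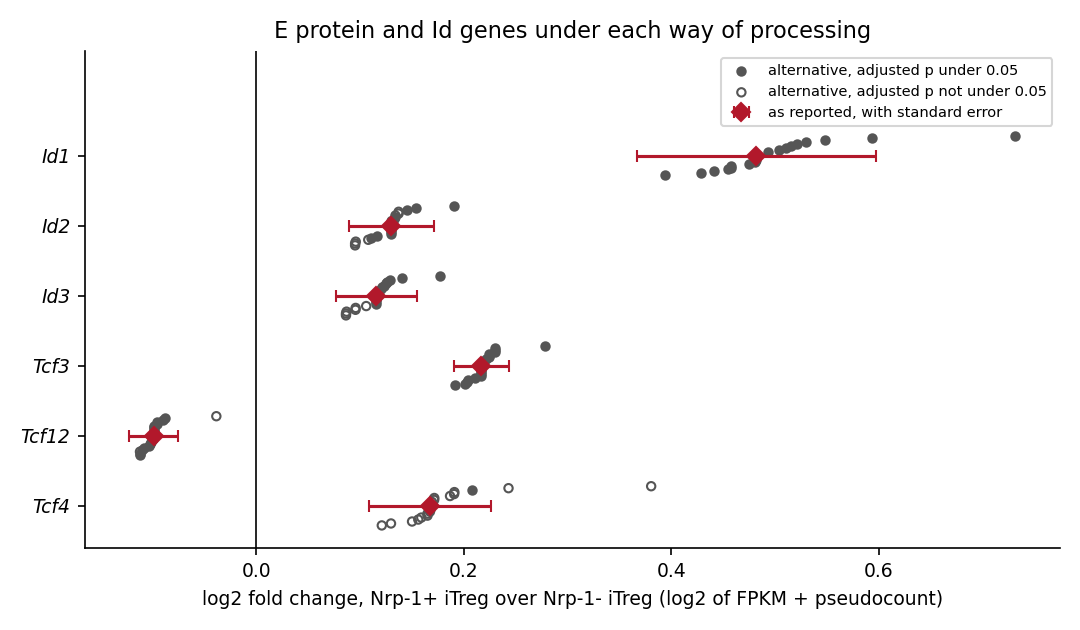
Log2 fold change of each gene, Nrp-1+ iTreg over Nrp-1- iTreg (x axis), as reported with its standard error (red diamond) and under each alternative fit (filled: adjusted p under 0.05, open: not). Id1 and Tcf3 are filled throughout, Id2 and Id3 are a mixture, Tcf12 stays left of 0 with 2 open points, and the Tcf4 points are open but for 1.

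Inhibitor and E protein genes were set against each other as sums within each library. The 3 Id genes summed to 74.1 ± 2.28 FPKM against 67.2 ± 1.73 FPKM (SD, n = 4). Divided by the E protein sum, this was 0.964, 1.03, 1.02 and 0.963 in the Nrp-1+ libraries, and 0.936, 0.991, 0.942 and 0.971 in the Nrp-1- libraries. The ratios overlapped between the groups, and in all 8 libraries inhibitor and E protein RNA were near parity. The ratio of Id3 to Id2 also overlapped, at 1.16 to 1.36 against 1.21 to 1.36. Id1 made up 3.01% ± 0.416 of the Id sum, against 1.97% ± 0.489.

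**Figure D4:**
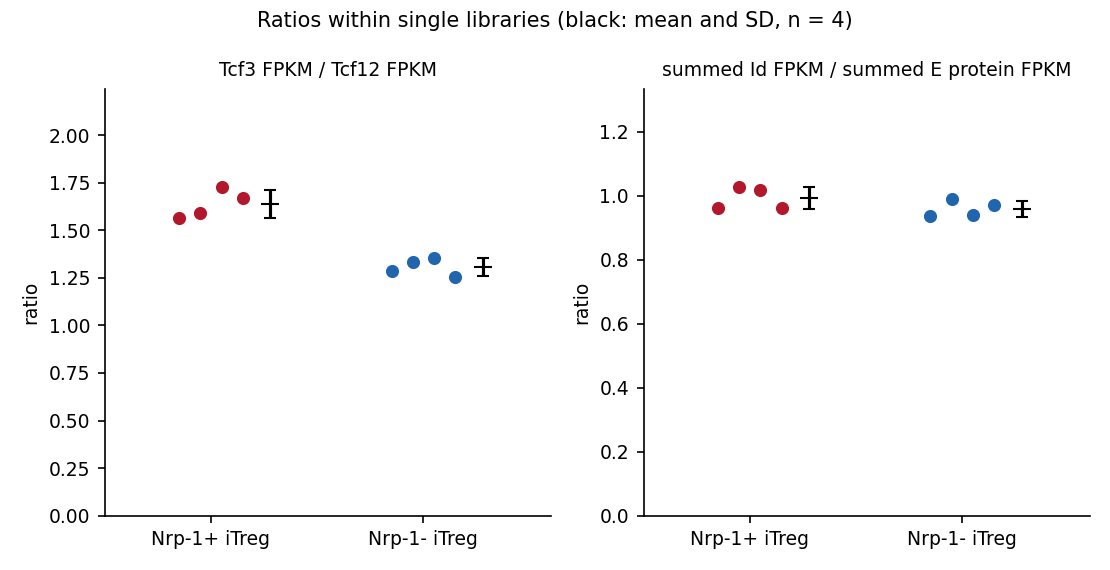
Ratio of Tcf3 FPKM to Tcf12 FPKM (left) and of summed Id FPKM to summed E protein FPKM (right) in single libraries (points, y axis from 0), with mean and SD in black. The left ratio is 1.57 to 1.72 for Nrp-1+ iTreg but 1.25 to 1.35 for Nrp-1- iTreg, and the right ratio overlaps between the groups.

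The surroundings of the family were read from lists of pathway genes, beside a median log2 fold change of -0.016 over all tested genes and the shares of all tested genes that passed (40.9%, with 20.9% higher and 20.0% lower). E proteins can pair with tissue-restricted helix-loop-helix factors, and of 19 such genes only Lyl1 reached the limit of 1 FPKM (1.03 FPKM against 1.06 FPKM, adjusted p = 0.946 by limma), while 8 were listed at 0 in every library. Of the repressor helix-loop-helix genes, 1 of 2 tested passed: Hes6 at 22.2 FPKM against 25.5 FPKM (log2 fold change -0.19, adjusted p = 0.0317). Among 8 tested cofactors of E proteins, 1 rose and 2 fell, with a median of -0.089. Such a count is close to the share of 40.9% over all tested genes and is no result about the cofactors as a group. The LIM adaptor Lmo4 was at 21.1 FPKM against 19.1 FPKM (adjusted p = 0.0211). Ldb1, which bridges LIM proteins, was at 126.8 FPKM against 144.5 FPKM (adjusted p = 0.00520), and the acetyltransferase Ep300 at 22.7 FPKM against 24.98 FPKM (adjusted p = 0.00649).

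Genes for the turnover of Id and E proteins stood mostly on the higher side, with 6 of 8 higher in Nrp-1+ iTreg, 0 lower and a median log2 fold change of 0.40, where 20.9% of all tested genes were higher. The 3 largest increases were those of Cdc20 (103.3 FPKM against 61.7 FPKM, log2 fold change 0.73, adjusted p = 2.31e-06 by limma), Fzr1 (50.7 FPKM against 32.0 FPKM, 0.65, adjusted p = 5.88e-05) and Skp2 (4.32 FPKM against 2.50 FPKM, 0.61, adjusted p = 0.000496). Cdc20 and Fzr1 are the activators of the anaphase-promoting complex and Skp2 is an adaptor of the SCF ubiquitin ligase. All 3 are known as cell cycle genes, and the proliferation markers given above moved in the same direction. Whether these increases are linked to proliferation was not tested. Usp1, a deubiquitinase that stabilises Id proteins, was at 71.9 FPKM against 49.4 FPKM (adjusted p = 6.52e-06) and is named here after its values were seen.

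Of the BMP receptors and Smads, the best known inducers of Id genes, 7 of 13 were tested, 1 rose and 3 fell, against 20.9% and 20.0% of all tested genes. Bmpr2 was at 3.35 FPKM against 2.90 FPKM (log2 fold change 0.16, adjusted p = 0.0390 by limma). The receptor Acvrl1 (38.4 FPKM against 42.1 FPKM, adjusted p = 0.00357), the effector Smad5 (5.99 FPKM against 6.94 FPKM, adjusted p = 0.0135) and the inhibitory Smad7 (29.3 FPKM against 35.9 FPKM, adjusted p = 0.000759) were lower. The BMP type I receptor gene Acvr1 missed the limit of 1 FPKM and was not tested, but its ranges of 1.23 to 1.68 FPKM against 0.398 to 0.886 FPKM did not overlap. It is named after its values were seen. Among 7 other regulators of Id genes (Egr, Stat5 and Myc genes and Prdm1) 0 rose and 2 fell. Prdm1, which encodes the repressor Blimp-1, was at 1.98 FPKM against 2.65 FPKM (adjusted p = 0.00859) and Stat5b at 57.9 FPKM against 61.3 FPKM (adjusted p = 0.0202).

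Of 21 T cell genes linked to E protein activity, 14 were tested, 3 rose and 7 fell, with a median log2 fold change of -0.084, where 20.9% of all tested genes were higher and 20.0% lower. Those that rose were Cdkn1a, a cell cycle inhibitor (61.9 FPKM against 34.7 FPKM, log2 fold change 0.82, adjusted p = 6.82e-06 by limma), Cdk6, a G1 kinase (6.58 FPKM against 4.78 FPKM, 0.39), and Foxp3 (115.8 FPKM against 108.8 FPKM, 0.09, adjusted p = 0.0245). The largest decreases were in Dntt, the terminal transferase of V(D)J joining (10.1 FPKM against 13.6 FPKM, -0.39), Il7r, the IL-7 receptor chain (122.8 FPKM against 157.7 FPKM, -0.36), and Tcf7, which encodes TCF-1 (310.5 FPKM against 364.3 FPKM, -0.23, adjusted p = 2.75e-05). Among others, the recombination genes Rag1 and Rag2 and the pre-TCR chain gene Ptcra were below the limit of 1 FPKM. So was the receptor gene Notch3, not tested and named after its values were seen, whose ranges of 0.621 to 0.723 FPKM against 0.186 to 0.255 FPKM did not overlap. Of the HMG-box factors, Tcf7 and Lef1 (159.3 FPKM against 172.5 FPKM, adjusted p = 0.00618) were lower and Tcf7l1 did not pass, so the E protein gene Tcf3 and the similarly named Tcf7 differed in opposite directions.

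**Figure D5:**
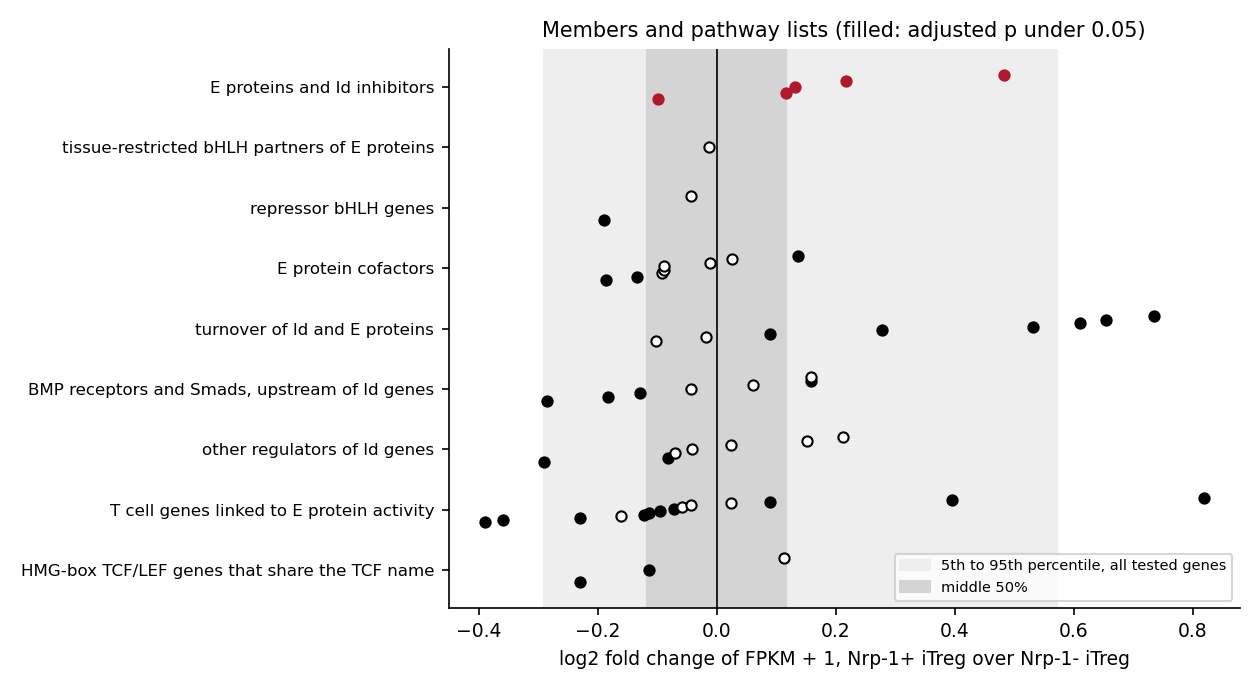
Log2 fold change (x axis) of each tested gene of the family (red, top row) and of the pathway lists (black), filled where the adjusted p was under 0.05, over grey bands for the middle 90% and 50% of all tested genes. The 5 tested members lie between -0.10 and 0.48, and the turnover list reaches furthest to the right apart from Cdkn1a.

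The genes whose values over the 8 libraries were closest to those of each of the 5 tested members were found by the root mean square difference of log2(FPKM + 1) after centring. For Tcf3 these were Mapkapk2 (0.017, against a median of 0.15 over all genes) and Atp2a2 (0.019). For Tcf12 they were Sbno1 (0.016, median 0.098) and Eif3d (0.016). For Id2 they were 2310036O22Rik (0.030, median 0.13) and S100a11 (0.032), and for Id3 Tmed2 (0.028, median 0.12) and Sap30bp (0.029). For Id1, whose libraries scatter most, the closest were 3110082I17Rik (0.084, median 0.30) and B9d1 (0.090). These are likenesses of pattern over 8 libraries that also share the group difference, and none of these 5 members was among the 2 nearest genes of another. Tcf4, below the limit of 1 FPKM, was not included.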

How the data were processed

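RNA sequencing of Nrp-1+ iTreg (4 libraries) and Nrp-1- iTreg (4 libraries) was used. The authors ran the reads through the CLC Genomics Workbench and deposited FPKM from Cufflinks, 1 value per gene symbol and library. The submitters' processing notes name GRCm38 (mm10); aligner settings and annotation are not given in the sources used here. FPKM is no count, so the tests across genes used no count model. Genes with a mean of at least 1 FPKM (10467) entered a limma 3.58.1 linear model of log2(FPKM + 1) in R 4.3.3, with an intensity-dependent prior variance and Benjamini-Hochberg adjustment over all of them; Tcf4 came from a fit of the 16289 genes with any value above 0. The fitting code was also run on simulated libraries with independent noise and few changed genes, unlike these data, so this checked the code only. Exact tests and plots were made in Python 3.11.15 (scipy 1.17.1, numpy 2.4.6; tables with pandas 2.3.3, drawings with matplotlib 3.10.9).

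Relative depth was read from genes under 0.1 FPKM, as the most frequent ratio between a library and replicate 1 of Nrp-1+ iTreg; it was 0.994 to 1.22 in Nrp-1+ iTreg and 0.810 to 1.24 in Nrp-1- iTreg. Fragment numbers are the smallest whole numbers (up to 4000 in the highest library, within 0.05 of whole in every library) in the ratio of FPKM times relative depth, so the true numbers could be a multiple of them. They were found for 66.3% of the tested genes, and for 0.201% with depths shifted by a few percent. Intervals from them cover counting error only. Short RNA genes held 1.77% to 43.9% of a library's summed FPKM.

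The 6 genes, the pathway lists and the tests were chosen with earlier results of these data known. Named by rule are the 6 genes, Nrp1, Foxp3, Mki67 and Top2a (the latter pair only within the proliferation sum). Per pathway list, up to 3 genes that rose most and 3 that fell most are added. So are the 2 nearest genes of each tested member. Marker genes and some list genes outside this rule are also named, such as Id4, Lyl1, Tcf7l1, Rag1, Rag2 and Ptcra. Usp1, Acvr1 and Notch3 were named after their values were seen. Other settings tried were a pseudocount of 0.1 or 0.5, a filter at 5 FPKM or none, median-of-ratios and equal-sum scaling, quantile normalization, the replicate block, no variance trend, array weights, no short RNA genes, GC and length correction (splines with 5 degrees of freedom, GENCODE M21 transcripts, 99.4% of tested genes), the ratio of means, and each library left out. Gene positions and promoters are from RefSeq GRCm38.p6; 4 of the 6 genes had promoter entries that were used. The nTreg libraries of the study were not analysed here.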

Additional observations from a re-analysis of the deposited data

Results flagged for a closer look

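Among 14 groups of 4 values searched (6 genes and the relative depth in each group), 2 held a library far from the other 3, where chance gives about 0.7. Both were replicate 3 of Nrp-1+ iTreg. Its Id3 level was 42.8 FPKM, against 39.1 to 39.7 FPKM in the other Nrp-1+ iTreg libraries, and its relative depth was 1.22, against 0.994 to 1.00. Without that library the log2 fold change of Id3 was 0.087 (adjusted p = 0.0932 by limma). Whether the depth has a part in the Id3 value was not tested.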

How the results depend on the processing

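The fit with GC and length correction and without short RNA genes was chosen after the data were examined. No direction reversed among the 6 genes in any fit run. Without a filter on mean FPKM, 3 of the 6 genes passed, with log2 fold changes of 0.13 for Id2 and 0.12 for Id3, which did not. With the GC and length correction 3 passed (Id2 at 0.095 and Id3 at 0.087 did not), and with that correction and the replicate block 2 passed (Id2 at 0.095, Id3 at 0.087 and Tcf12 at -0.11 did not), when 1344 genes were higher and 1059 lower over all, against 2189 and 2093 as reported. Without short RNA genes in the corrected fit, 5 passed. Id3 also lost its call with quantile normalization (0.096), the replicate block (0.12) and no variance trend (0.12), and its difference after median-of-ratios scaling was 3.16 FPKM. Equal-sum scaling left 973 genes lower and Tcf12 at -0.038. The ratio of group means gave 0.76 for Id1 and 0.42 for Tcf4. Neither Id1 nor Tcf4 was tested with the filter at 5 FPKM.

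With each library left out, 3 to 5 of the 6 genes passed, and log2 fold changes ranged from 0.39 to 0.55 for Id1, 0.096 to 0.15 for Id2, 0.087 to 0.14 for Id3, 0.20 to 0.23 for Tcf3, 0.12 to 0.21 for Tcf4 and -0.11 to -0.088 for Tcf12. The causes of lost calls were not tested. Same-numbered libraries did not deviate together (correlations from -0.54 to 0.010 over the tested genes, -0.107 to -0.036 without short RNA genes). Whether they came from the same animal or culture cannot be told from this. With the replicate block in limma 4 of the 6 genes passed. The exact sign-flip test over 4 pairs cannot go below p = 0.125, which it gave for differences of 0.911 FPKM (Id1), 2.84 (Id2), 3.18 (Id3), 6.55 (Tcf3), 0.189 (Tcf4) and -2.06 (Tcf12). In the pathway lists the block left 0 of 1 repressor gene (Hes6 lost its call), 1 of 2 other regulators, 0 of 1 higher BMP pathway gene (Bmpr2 lost its call), 5 of 6 higher turnover genes and 5 of 7 lower T cell genes, and changed no other count.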
